A study of Arabidopsis thaliana with 4 samples.

Results

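Nucleosome calls on the chromosome arms that drew most of their support from 1 DNA strand were examined in inflorescences of Arabidopsis thaliana. A call was a member when the larger of its forward and reverse votes, the weights that the caller gave to the 2 strands, was at least 3 times the smaller. The members are called unequal calls here. The arms were the sequence more than 2.5 Mb from 15, 3.6, 14, 4 and 12 Mb on chromosomes 1 to 5, positions taken as the centromeres. Over the 4 deposited lists there were 153275 unequal calls among 1019972 arm calls and 1253289 calls in all. Arm calls with a ratio under 1.5, 447867 in number, served as the reference. The members were chosen by the forward and reverse votes, so these ratios are a description and not a result.

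The 4 libraries were 2 replicates of the accession Landsberg erecta (Ler) and 2 of top1a-2, a mutant of TOP1α with Ler as its labelled ecotype. No further allele, treatment or age is given, and the labels do not say whether replicates were grown or collected apart. Every p-value thus reflects the spread between these libraries alone, which may be technical. Both genotypes were sampled as inflorescences with unopened buds, a mixture of cell types, and the nuclei were digested with micrococcal nuclease. The lists held 286541 to 335395 calls each, and the read depth behind them is unknown, since votes are not whole numbers and their scale is not stated.

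In this assay the nuclease removes the linker DNA between nucleosomes and the protected fragments are sequenced from their ends. A forward read starts at the edge of the fragment with the lower coordinate and a reverse read at the edge with the higher coordinate, so an evenly sampled nucleosome gets support from both strands. The nuclease is known to prefer cutting at A and T, and short reads cannot be placed in repeated sequence, so the edges of a nucleosome need not be sampled alike. TOP1α is a DNA topoisomerase I. It relaxes the supercoils that form when nucleosomes are moved and genes are transcribed, and in Arabidopsis it is known for its part in the meristems and in flower development.

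Unequal calls made up very different shares of the arm calls in libraries of the same genotype. They were 18.4% and 8.14% of arm calls in Ler replicates 1 and 2, or 47102 and 18801 calls. In top1a-2 they were 20.8% and 11.7%, or 57313 and 30059 calls. Both replicates numbered 1 were high and both numbered 2 were low, while the genotypes overlapped. The mean share was 13.3% ± 7.23 for Ler and 16.3% ± 6.45 for top1a-2 (SD, n = 2). The difference of 3.0 percentage points was smaller than the SD within either genotype (exact two-sided permutation p = 0.667). With 2 libraries against 2 this test cannot go below 0.33. The difference was -2.11 points without Ler replicate 2 and -1.56 points without top1a-2 replicate 1, but 8.11 points without Ler replicate 1 and 7.56 points without top1a-2 replicate 2. Leaving out 1 library sets 1 replicate number of a genotype against both numbers of the other. These values thus also carry the difference between the numbers.

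The shares had the order of the number of calls in the lists, which was 286541 in Ler replicate 2, 315609 in top1a-2 replicate 2, 315744 in Ler replicate 1 and 335395 in top1a-2 replicate 1. The libraries in the middle of that order had nearly the same number of calls and shares of 11.7% and 18.4%. The part of the number of calls in the shares was not tested. The median ratio over arm calls was 1.70 in Ler replicate 1 and 1.75 in top1a-2 replicate 1, against 1.46 and 1.54 in the replicates numbered 2. The median size of all arm calls went the same way, at 144.9 and 144.7 bp in the replicates numbered 1 and 142.7 and 142.9 bp in those numbered 2. Its part in the shares was not tested. When every library was weighted to the same mix of total votes, the shares were 19.3% and 9.17% in the Ler replicates and 19.7% and 10.9% in the top1a-2 replicates, and the difference between the genotypes shrank to 1.11 points.

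**Figure D1:**
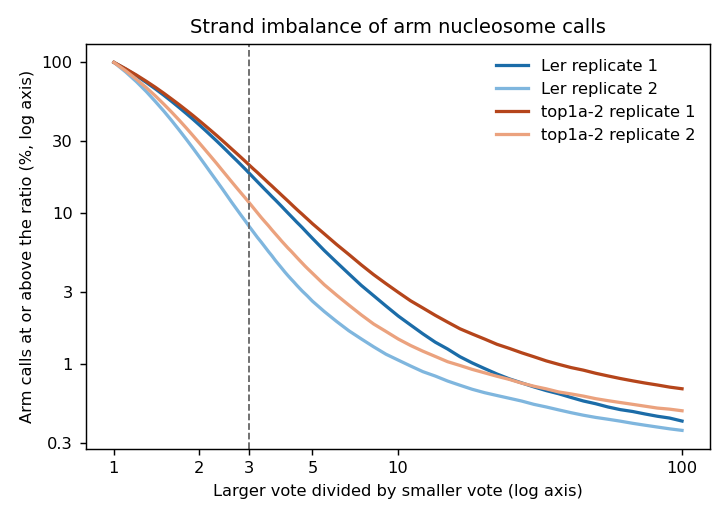
Percent of arm calls (log axis) whose larger vote is at least the given multiple of the smaller (log axis), 1 line per library; the dashed line marks the ratio of 3. At that line the lines of the 2 replicates numbered 1 stand at 18.4% and 20.8%, above those of the replicates numbered 2 at 8.14% and 11.7%.

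Calls just inside the limit had about the size and fuzziness of those just outside it. In Ler replicate 1 the 5584 calls with a ratio of 3 to 3.2 had a median score of 0.824 and a mean fuzziness (the spread of the position) of 39.1 bp. The 6679 calls with a ratio of 2.8 to 3 had 0.818 and 39.0 bp. In Ler replicate 2 the median score was 0.699 just inside and 0.737 just outside. The median ratio of the unequal calls was 4.00 to 4.46 in the 4 libraries. A ratio of 100 or more was found for 1077 and 841 arm calls in the Ler replicates and for 1893 and 1263 in the top1a-2 replicates.

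The heavier strand was forward for nearly as many unequal calls as it was reverse. The forward share was 52.3% and 47.7% in the Ler replicates and 52.1% and 49.5% in the top1a-2 replicates. It was over 50% in both replicates numbered 1 and under it in both numbered 2, and the genotypes overlapped (exact permutation p = 1). The mean over the 4 libraries was 0.407 percentage points above 50% (exact two-sided sign-flip permutation p = 1, with 0.13 the smallest this test can give).

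The share of unequal calls differed little between the arms of the 5 chromosomes, from 18.0% to 18.6% in Ler replicate 1 and from 20.5% to 21.2% in top1a-2 replicate 1. The ranges were 7.71% to 8.32% in Ler replicate 2 and 11.5% to 12% in top1a-2 replicate 2. Among the classes of distance the share was highest next to the pericentromeres. At 2.5 to 4 Mb from the assumed centromeres it was 20.2% and 10.5% in the Ler replicates and 22.5% and 14.1% in the top1a-2 replicates. Beyond 12 Mb it was 17.9%, 7.22%, 20.5% and 10.9% in the same order. Within the pericentromeres themselves, 28.5% and 20.6% of the calls of the Ler replicates and 29.6% and 22.8% of those of the top1a-2 replicates had a ratio of 3 or more, so that in each of the 4 libraries the arms held the lower share.

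Unequal calls were most frequent among the shortest and the longest calls. Among arm calls of 140 to 160 bp, about the length of DNA in a nucleosome core, 4.56% to 13.6% were unequal, depending on the library. Under 60 bp the share was 59.1% to 84.2%, and over 250 bp it was 54.7% to 85.9%. The median size did not show this. It was 141.6 and 141.3 bp for the unequal calls of the Ler replicates and 142.5 and 141.3 bp for those of the top1a-2 replicates, against 145.7, 143.1, 145.3 and 143.3 bp for the reference. The difference from the reference was -2.68 ± 1.05 bp (SD over 4 libraries), negative in 4 of 4 libraries (exact sign-flip permutation p = 0.13). It was -0.312 bp without scores below the lower quartile, where Ler replicate 2 (2.53 bp) and top1a-2 replicate 2 (0.053 bp) were positive, and -1.64 and -6.44 bp with ratios of at least 2 and 5. With the same mix of total votes the difference was -1.40 bp and had the opposite sign in Ler replicate 2, at 0.303 bp.

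The size went with the strand that was heavier. Forward-heavy unequal calls had a median size of 120.1 and 118.6 bp in the Ler replicates and of 127.4 and 126.0 bp in the top1a-2 replicates. Reverse-heavy ones had 166.7 and 162.7 bp in Ler and 159.6 and 156.9 bp in top1a-2. All 4 libraries had the shorter calls on the forward side. Reference calls had the same order by a smaller margin, at 141.9, 139.2, 142.6 and 140.5 bp when the forward vote was the larger and 149.7, 147.2, 148.1 and 146.2 bp when the reverse vote was. Of the forward-heavy unequal calls 26.8% and 31.4% in Ler and 17.9% and 20.1% in top1a-2 were under 100 bp. Of the reverse-heavy ones 18.5% and 18.1% in Ler and 10.9% and 11.2% in top1a-2 were over 200 bp. Both orientations thus stood farther from the usual length in the 2 Ler libraries than in the 2 top1a-2 libraries. How the caller derives the size from the reads of the 2 strands is not stated, so these values are a description with no test, and the tests of size given here carry the same limit.

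Short and long calls made up smaller shares of the unequal calls in both top1a-2 libraries. Calls under 100 bp made up 15.7% and 18.7% of the unequal calls in the Ler replicates and 11.5% and 13.0% in the top1a-2 replicates. The means were 17.2% ± 2.12 and 12.3% ± 1.05 (SD, n = 2), and the genotypes did not overlap (exact permutation p = 0.33, the smallest possible). Calls over 200 bp made up 9.59% and 11% in Ler and 6.57% and 7.27% in top1a-2, again without overlap (exact permutation p = 0.33). The reference calls went the same way, with 1.5% and 1.72% under 100 bp in the Ler replicates and 1.00% and 0.928% in the mutant. Over 200 bp they had 1.58% and 1.66% in the Ler replicates and 0.83% and 0.85% in the mutant. Relative to Ler, the mean share fell by more in the reference than in the unequal calls for both short and long calls. The lower shares were thus not particular to the unequal calls. Both measures were picked out after the values were seen. The median total votes of arm calls were 0.182 and 0.221 in the Ler replicates and 0.120 and 0.136 in the top1a-2 replicates. The short and long shares were not weighted to the same mix of total votes, so the part of the votes in them was not tested.

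**Figure D2:**
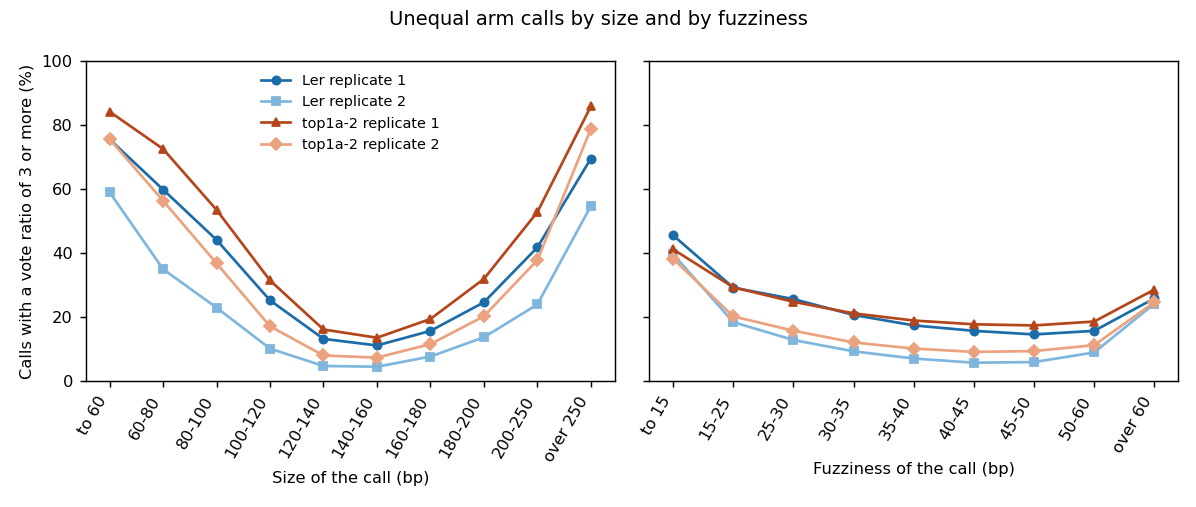
Percent of arm calls with a vote ratio of 3 or more in classes of size (left, bp) and of fuzziness (right, bp), 1 line per library. Each line is lowest at 140 to 160 bp (4.56% to 13.6%) and climbs to over 50% in the classes of under 60 and over 250 bp; by fuzziness the narrowest calls (38.3% to 45.6%) stand highest.

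Fuzziness also had its extremes among the unequal calls. Among the narrowest arm calls, at 15 bp or less, 38.3% to 45.6% were unequal, of those at 40 to 45 bp 5.82% to 17.8%, and of those over 60 bp 24.3% to 28.7%. The unequal calls had a mean fuzziness of 37.5 and 37.1 bp in the Ler replicates, and of 35.8 and 36.3 bp in the mutant. Reference calls had 39.9, 40.2, 38.3 and 39.3 bp. The difference from the reference was -2.74 ± 0.366 bp (SD over 4 libraries), negative in 4 of 4 libraries (exact sign-flip permutation p = 0.13). It was -1.32 bp without scores below the lower quartile, and -1.52 and -5.15 bp with ratios of at least 2 and 5. By genotype it was -2.72 ± 0.501 bp in Ler and -2.76 ± 0.387 bp in top1a-2 (exact permutation p = 1). How the caller derives fuzziness from the reads is not stated, so the tests of fuzziness carry the limit given for size.

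Narrow calls made up larger shares of the unequal calls in both mutant libraries. A fuzziness of up to 25 bp was found for 10.4% and 13.6% of the unequal calls of the Ler replicates and for 16.2% and 15.6% of those of the top1a-2 replicates, with no overlap (exact permutation p = 0.33). Averaged over libraries, the fuzziness of unequal calls was 37.3 ± 0.299 bp for Ler and 36.1 ± 0.344 bp for top1a-2 (SD, n = 2). The mutant thus differed by -1.23 bp (exact permutation p = 0.33). The narrow share and this mean were picked out after the values were seen, and neither was weighted to the same mix of total votes. Reference calls showed the same order, with narrow shares of 4.55% and 3.64% for Ler and 8.46% and 5.63% for the mutant. With a ratio of 5 or more as the limit, the narrow shares were 16.6% and 25.2% in Ler and 22.5% and 25.8% in top1a-2, which overlap.

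Unequal calls were weak calls. The confidence score, the value the caller gives to a call, followed the sum of the votes closely (Spearman's rho of 0.914 to 0.932 across the arm calls of a library, which share its reads), so it is a description here with no test. The median score was 0.734 and 0.552 for the unequal calls of the Ler replicates and 0.683 and 0.543 for those of the top1a-2 replicates. For the reference calls it was 0.911, 0.900, 0.890 and 0.859. With the arm calls of each library sorted by score into 10 equal classes, 22.5% to 36.3% of the lowest class and 3.76% to 13.1% of the highest were unequal.

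The distance to the neighbouring call was then compared between the 2 sides of an unequal call. The side of the heavier strand was taken as the lower-coordinate side for forward and the higher-coordinate side for reverse. The files do not state this assignment, and with the opposite one every value for the heavier and the lighter side would swap. The longer of the 2 distances lay on the heavier side for 53.8% and 44.7% of the unequal calls in the Ler replicates and for 55.4% and 47.7% in the top1a-2 replicates. Reference calls, sided by their own heavier strand, gave 50.6%, 48.8%, 50.9% and 49.3%. The difference from the reference was positive in both replicates numbered 1 and negative in both numbered 2, and its mean was 0.537 ± 4.03 percentage points (SD over 4 libraries; exact sign-flip permutation p = 0.875). The genotypes overlapped (exact permutation p = 0.667).

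Close neighbours also lay unevenly. In the replicates numbered 1 a neighbour within 200 bp was more frequent on the lighter side, with 12.5% against 9.08% on the heavier side in Ler and 18.0% against 12.7% in top1a-2. In the replicates numbered 2 the sides differed by less, with 10.4% against 11.5% in Ler and 13.8% against 12.9% in top1a-2. On either side unequal calls had more close neighbours than reference calls, for which the shares were 5.44% to 10.7%, library by library. Forward-heavy and reverse-heavy calls gave the same side in the replicates numbered 1. The longer distance lay on the heavier side of 54.0% of forward-heavy and 53.7% of reverse-heavy calls in Ler replicate 1, and of 55.6% and 55.2% in top1a-2 replicate 1. In Ler replicate 2 these were 48.3% and 41.5%, and in top1a-2 replicate 2 they were 48.7% and 46.7%.

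Wide gaps lay beside the lighter strand where the imbalance was greatest. Among calls with a ratio of 100 or more, a distance of over 500 bp followed on the lighter side for 30.3% and 34.4% in the Ler replicates and on the heavier side for 18.4% and 22.1%. In the top1a-2 replicates it followed on the lighter side for 20.2% and 25.9% and on the heavier side for 15.3% and 17.0%. All 4 libraries had this order. These calls were few and weak, at 0.420% and 0.364% of the arm calls of the Ler replicates and 0.687% and 0.491% of those of the top1a-2 replicates. Their median scores were 0.123 and 0.0717 in Ler and 0.103 and 0.0677 in top1a-2. Calls under 100 bp made up 48.7% and 48.0% of them in Ler and 43.1% and 42.6% in top1a-2. For all unequal calls the heavier side minus the lighter side was -0.183 and -4.72 percentage points in the Ler replicates and 0.0576 and -3.00 points in the top1a-2 replicates. Relative to the reference it was -1.60 ± 1.85 points (SD over 4 libraries; exact sign-flip permutation p = 0.25), negative in 3 of 4 libraries. It was -4.08 points without scores below the lower quartile and -0.471 points for distances over 1000 bp, negative in 4 of 4 libraries in both, and -0.997 and -3.06 points with ratios of at least 2 and 5.

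**Figure D3:**
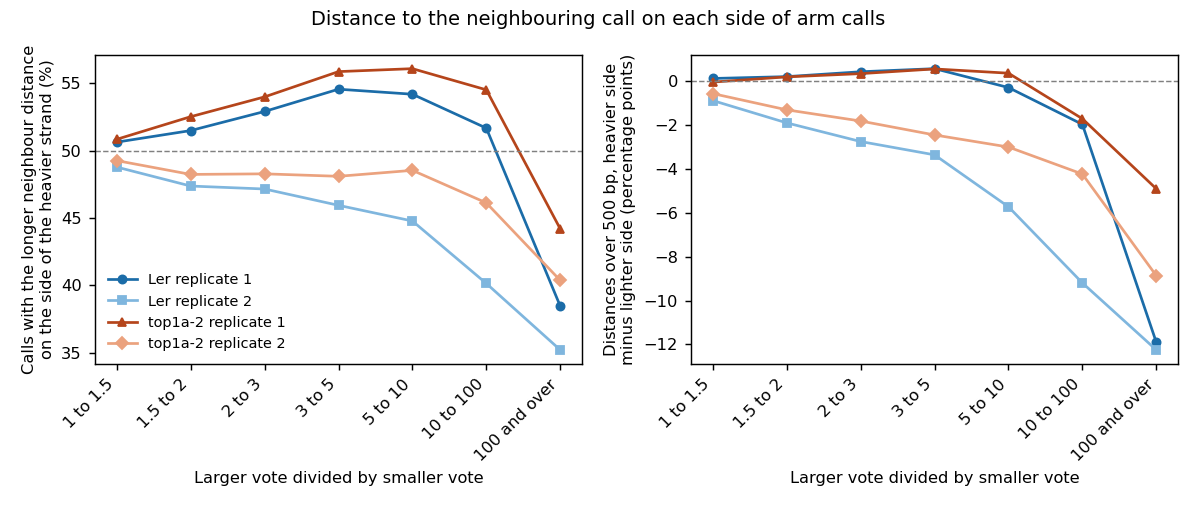
Percent of arm calls whose longer neighbour distance lies on the side of the heavier strand (left; dashed line at 50%) and percent of distances over 500 bp on the heavier minus the lighter side (right; percentage points, dashed line at 0), in classes of the vote ratio, 1 line per library. At a ratio of 100 and over all 4 lines are below 50% (35.2% to 44.2%) and below 0, while at 3 to 10 the replicates numbered 1 are above 50% and those numbered 2 below it.

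In each of the 4 libraries, and in each class of distance over 100 bp, the next call was unequal more often after an unequal call than after another call. Where the next call lay over 200 and up to 300 bp away, it was unequal after 24.2% and 16.1% of the unequal calls in the Ler replicates and after 24.6% and 16.7% in the top1a-2 replicates. After other calls it was unequal in 18.2%, 7.92%, 20.0% and 11.4%. When both were unequal at that distance, they had the same heavier strand in 57.7% to 65.1% of pairs. Across gaps of over 500 bp the facing strands were the lighter ones more often than the heavier ones. Of such pairs of unequal calls, 27.4% of 1293 in Ler replicate 1 and 36.0% of 686 in Ler replicate 2 had the forward strand heavier before the gap and the reverse strand heavier after it, and 18.5% and 15.2% had the opposite order. In top1a-2 replicates 1 and 2 the shares were 27.2% of 1403 and 34.4% of 854 pairs, against 19.0% and 17.9%. The pairs were not tested.

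Unequal calls were found again in the other libraries about as often as reference calls. A call of the other replicate of the same genotype lay within 20 bp of 20.1% and 24.0% of the unequal calls of the Ler replicates and of 22.3% and 24.3% of those of the top1a-2 replicates. For the reference calls the shares were 20.1%, 22.0%, 22.7% and 24.1%. The mean difference was 0.419 ± 1.04 percentage points, positive in 2 of 4 libraries (exact sign-flip permutation p = 0.75). With the same mix of total votes it was 2.35 points, at 0.994 and 3.61 points in the Ler replicates and 1.30 and 3.51 points in the top1a-2 replicates. Over all 12 ordered pairs of libraries the shares ranged from 19.8% to 25.2% for unequal calls and from 20.1% to 24.5% for reference calls.

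The partner of an unequal call was unequal itself in 28.6% to 69.6% of matches over the 12 ordered pairs. Of the unequal calls of Ler replicate 1 with a partner in Ler replicate 2, 33.2% had an unequal partner, and in the opposite direction it was 69.6%. Between top1a-2 replicates 1 and 2 these shares were 34.1% and 59.8%. Of the reference calls 1.40%, 5.62%, 3.24% and 8.56% had an unequal partner in the same comparisons. Unequal calls made up 8.14%, 18.4%, 11.7% and 20.8% of all arm calls in the lists that were searched. Reference calls were chosen for nearly equal votes, so the choice of calls fixes their low values in part. The replicates numbered 2 hold fewer unequal calls to be matched.

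The heavier strand was almost always the same strand in both libraries. Of 3136 pairs of unequal calls within 20 bp in the Ler replicates, 99.5% had the same heavier strand, and 17 pairs did not. Of 4363 pairs in the top1a-2 replicates it was 99.2%, with 36 exceptions. Between the genotypes it was 99.8% of 7086 pairs in the replicates numbered 1 and 99.5% of 2431 pairs in those numbered 2. Without the scores below the lower quartile of each library it was 100% of the 1707 Ler pairs and of the 2602 top1a-2 pairs. Over all the 12 ordered pairs the unequal calls shared their heavier strand with the partner in 92.7% to 97.6%, whatever the ratio of the partner. For reference calls it was 60.9% to 66.2%, but these were chosen for nearly equal votes, so the comparison is a description that the choice of calls fixes in part.

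This likeness faded with distance over the length of a nucleosome. At offsets of 41 to 60 bp, 95.8% to 98.4% of the pairs in which both calls were unequal had the same heavier strand. At 81 to 100 bp it was 77.8% to 93.7%, and at over 150 to 200 bp 58.0% to 74.7%, with 357 to 1155 pairs per comparison in that last class. The share of nearest calls that were unequal too fell along with it, from 29.8% to 74.0% at up to 5 bp to 9.15% to 29.7% at over 150 to 200 bp.

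**Figure D4:**
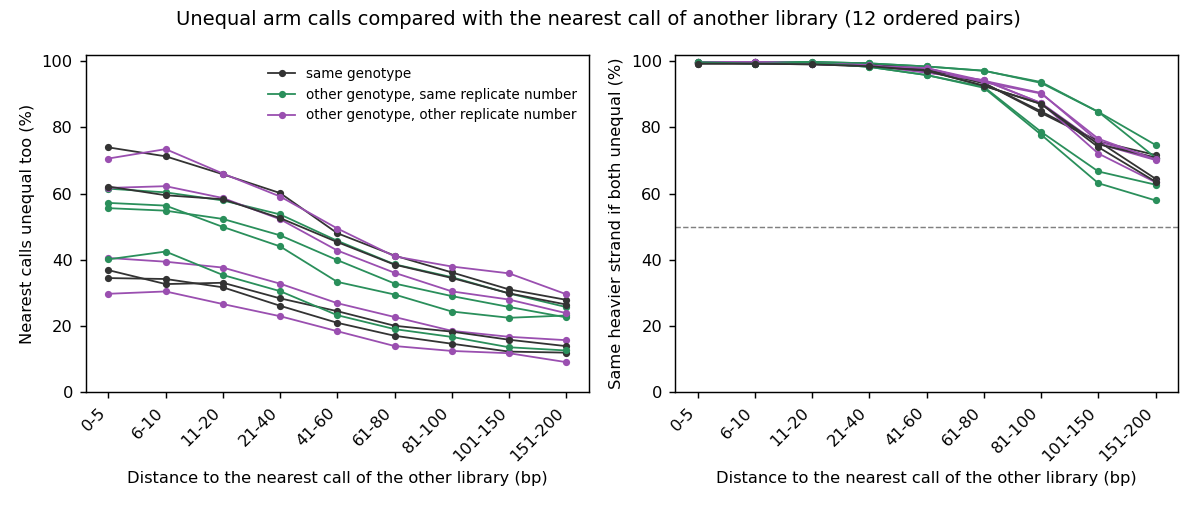
Percent of unequal arm calls whose nearest call in another library is unequal too (left) and percent of those pairs with the same heavier strand (right; dashed line at 50%), by the distance between the 2 calls in bp, 1 line for each of the 12 ordered pairs of libraries. On the right all lines stay above 99% up to 20 bp and reach 58.0% to 74.7% at over 150 to 200 bp, with pairs of the same and of different genotypes intermixed.

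Arm positions called in all 4 libraries within 20 bp numbered 5252 and allow the same nucleosome to be followed. Of these loci 3571 were unequal in no library, 783 in exactly 1, 390 in 2, 244 in 3 and 264 in all 4. The heavier strand was the same in all 4 libraries at all of the 264, forward at 136 and reverse at 128. At the 1681 loci that were unequal in at least 1 library it was the same in all 4 at 88.5%. Loci unequal in both top1a-2 libraries and neither Ler library numbered 52, and those unequal in both Ler libraries and neither top1a-2 library 43. The pairs that cross genotype and number gave 50 loci for Ler replicate 1 with top1a-2 replicate 2 and 27 for Ler replicate 2 with top1a-2 replicate 1. Loci unequal in both replicates numbered 1 alone were more frequent, at 208, and those unequal in both replicates numbered 2 alone numbered 10. Over all 5252 loci, 20.0% and 10.1% were unequal in the Ler replicates and 21.2% and 12.5% in the top1a-2 replicates. The replicates numbered 1 thus had more unequal loci to share.

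Single loci are given as examples, with higher scores and larger ratios than the median unequal call, so they are not typical members. The following were chosen after their values were seen, from the 54 loci that were unequal in all 4 libraries and had a score of at least the arm median and a ratio under 100 in each, so their being unequal everywhere is no result. On chromosome 2, between 6851408 and 6851420 in the coordinates of the lists, the forward votes were 18.2 and 15.7 times the reverse votes in the Ler replicates and 16.0 and 34.5 times in the top1a-2 replicates. Its size was 101.9 and 88.4 bp in Ler and 48.7 and 112.9 bp in top1a-2. On chromosome 2 between 47073 and 47083 the reverse votes were 19.0 and 13.6 times the forward votes in Ler and 7.54 and 9.16 times in top1a-2. That call had the size of a usual nucleosome, at 140.5 and 142.8 bp in Ler and 142.4 and 139.0 bp in top1a-2. A locus without that limit on the ratio was also chosen after its values were seen. On chromosome 1 between 23879761 and 23879777 the reverse strand held nearly all votes in all 4 libraries, with log2(forward/reverse) of -12.79 and -12.88 in Ler and -17.02 and -14.65 in top1a-2. The build of the lists is not stated, so no gene is named for these positions.

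Across the 5252 loci, log2(forward/reverse) ranked alike in any 2 libraries. Spearman's rho was 0.780 between the Ler replicates and 0.738 between the top1a-2 replicates. Between the genotypes it was 0.813 for the replicates numbered 1, 0.729 for those numbered 2, and 0.758 and 0.747 for the others. These are descriptions across loci of shared sequence, which are not independent replicates. Loci unequal in all 4 libraries had a median size of 129.1 to 135.4 bp and those unequal in none 136.9 to 143.1 bp.

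**Figure D5:**
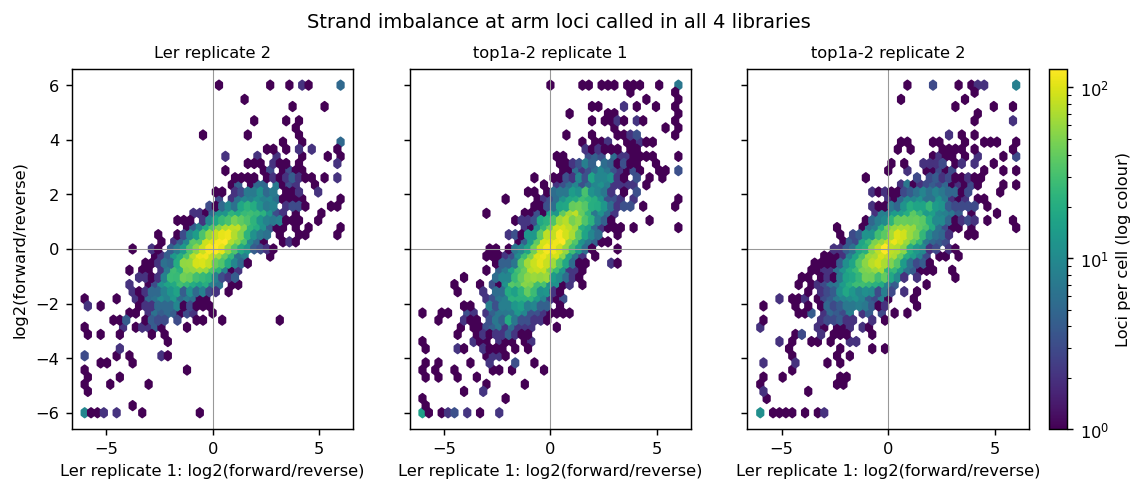
log2 of forward over reverse votes in Ler replicate 1 (x axis) against each of the other libraries (y axis) at 5252 arm loci called in all 4 libraries, coloured by the number of loci per cell (log colour scale); values beyond -6 or 6 are drawn at the edge. In each panel the loci follow a rising diagonal, with Spearman's rho of 0.780, 0.813 and 0.758 from left to right.

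A difference between the genotypes at single loci was sought with limma, fitted to log2(forward/reverse) over 5221 loci, after 31 with a value beyond 10 in either direction were left out. At a Benjamini-Hochberg adjusted p of 0.05, 0 loci passed, or 0% of those tested. At an unadjusted p under 0.05 stood 157, or 3.01%, with 75 shifted to the forward strand in top1a-2 and 82 to the reverse strand. The median absolute difference was 0.34 on the log2 scale and the median standard error 0.50. With standard errors of this size, 0 calls do not show that the loci were alike in the genotypes. The locus with the smallest p for a shift to the forward strand lay on chromosome 2 between 7363284 and 7363300. Its log2(forward/reverse) was 2.10 and 1.21 in the Ler replicates and 5.13 and 3.94 in the top1a-2 replicates, a difference of 2.88 ± 0.72 (SE; limma adjusted p = 0.999). For the reverse strand it lay on chromosome 3 between 22746397 and 22746416, with 3.72 and 2.56 in Ler and 1.53 and 1.00 in top1a-2, a difference of -1.87 ± 0.47 (SE; limma adjusted p = 0.999).

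The share of unequal calls was compared in the same way in 913 arm windows of 100 kb. The log2 odds of the share were higher in top1a-2 in 872 windows and lower in 41, with a median difference of 0.40. All windows of a library carry its overall share, so this split largely repeats the difference between the library shares. By limma at an adjusted p of 0.05, 0 windows passed, or 0%, and 0 had an unadjusted p under 0.05. Even the window with the smallest p had a standard error of 1.32 for a difference of 1.33. The fit could thus call little, and 0 calls do not show that the genotypes were alike. The 2 replicates of a genotype differed by more than the genotypes. In 902 windows both replicates numbered 1 were above both numbered 2, and in 11 windows both top1a-2 libraries were above both Ler libraries. With each library centred on its own mean 0 windows passed as well, and the median difference was -0.022. At an unadjusted p under 0.05 stood 35 of the 913 windows, 20 higher and 15 lower in top1a-2.

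By p alone the first window was on chromosome 1, starting at 900001. It held 15.7% and 3.44% unequal calls in the Ler replicates and 23.0% and 12.7% in the top1a-2 replicates (log2 odds difference 1.33 ± 1.32 SE, limma adjusted p = 0.999). Higher shares in top1a-2 followed on chromosome 2 from 9500001, with 17.2% and 6.04% in Ler and 22.6% and 16.6% in top1a-2, and on chromosome 4 from 10100001, where Ler had 16.6% and 3.91% and top1a-2 had 25.8% and 11.6%. Among windows with a lower share in top1a-2 the smallest p was on chromosome 2 from 8700001, with 24.9% and 10.0% in Ler and 20.1% and 9.27% in top1a-2. It was followed by chromosome 3 from 16600001 (25.4% and 13.2% against 20.3% and 13.2%) and from 7700001 (19.5% and 8.96% against 16.6% and 7.42%). The limma adjusted p was 0.999 for each of these windows, and in each the genotypes overlapped.

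The windows with the highest mean share over the 4 libraries are given as a description. The highest mean share was in the first 100 kb of chromosome 2, with 44.0% and 34.7% in the Ler replicates and 40.4% and 38.4% in the top1a-2 replicates. This end of the chromosome borders a nucleolus organizer, a long array of ribosomal RNA genes. The next were on chromosome 4 from 10700001, with 37.8% and 33.3% in Ler and 40.3% and 32.3% in top1a-2, and on chromosome 3 from 16700001, with 36.5%, 25.3%, 38.1% and 29.7% in the same order. These windows held 96 to 210 calls per library. The lowest mean share was on chromosome 1 from 10300001, with 10.2%, 4.29%, 12.7% and 6.03%. Spearman's rho between the window shares of 2 libraries was 0.431 to 0.535 over the 913 windows, which share their sequence.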

How the data were processed

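The authors deposited 1 list of nucleosome calls per library. Its columns, per the file headers, are position, fuzziness, size, score and votes on either strand. The deposited score, like the votes, is the caller's own value with no stated scale. For the caller, aligner, build and thresholds, nothing is given in the sources read. Per the labels' protocols, mononucleosome-sized DNA from a gel was sequenced. No call had a vote of 0. Read depth is unknown, so no counting interval is given.

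Neighbour distances are between positions of successive calls in a list. A partner is the nearest call of the other list within 20 bp. Loci called in all 4 libraries were mutual nearest calls with Ler replicate 1, spanning up to 20 bp. The same mix of total votes means averaging over 10 classes of forward plus reverse votes. Single values were compared by exact permutation over libraries. The lowest Benjamini-Hochberg adjusted p over the 17 tests of this kind was 0.81. Windows of 100 kb with at least 50 calls in each library were fitted with limma 3.58.1 in R 4.3.3 with a variance trend, on log2 odds with 0.5 added to both kinds of call. Up to 3 windows per direction are named, by p, and the highest and lowest mean shares. The members, the lists and the tests were chosen with earlier results of these data known. Added after the values were seen were the locus test, the short, long and narrow shares, and the mean fuzziness of unequal calls by genotype.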

Additional observations from a re-analysis of the deposited data

How the results depend on the processing

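Of 153 alternatives, 18 turned a direction. Another 8 moved a count by over 1.5 times or an untested value by more than the spread between libraries. The other 127 kept the direction and the side of the threshold, or the count, though the size of some tested differences from the reference moved by over 1.5 times, as given with those results. The difference of top1a-2 minus Ler, without 1 library at a time, ranged from -2.11 to 8.11 points in the share of unequal calls, -1.48 to 3.14 in the forward share, -1.71 to 5.54 in the longer distance on the heavier side, -0.863 to 2.67 in wide gaps, -0.671 to 1.65 bp in size and -0.390 to 0.318 bp in fuzziness, both against the reference. In the first 4 it turned negative when Ler replicate 2 was left out (-2.11, -1.48, -1.71, -0.863), and also when top1a-2 replicate 1 was (-1.56, -0.480, -1.14, -0.365). It turned to -0.671 bp in size without Ler replicate 1, and in fuzziness to 0.318 bp without Ler replicate 1 and 0.237 bp without top1a-2 replicate 2. Each such value sets 1 replicate number of a genotype against both numbers of the other, and so also carries the difference between the numbers. Without scores below the lower quartile, the forward share was -1.47 points from 50%, the longer distance on the heavier side -1.77 points from the reference, the genotype differences -1.12 bp in size and 0.0962 bp in fuzziness, the score -0.137 against the reference, and the same heavier strand 100%. With a ratio of 5 or more the longer distance was -0.770 points, the genotype difference in fuzziness 0.152 bp and the score difference -0.405. With a ratio of 2 or more the score difference was -0.164 and the same heavier strand 98.4%, against -0.262 and 99.3%. With the same mix of total votes the genotype difference in sharing was 0.103 points instead of -1.06. Short calls ranged from -6.38 to -3.39 points, long calls from -4.08 to -2.67, narrow calls from 2.25 to 5.53 and mean fuzziness of unequal calls from -1.47 to -0.985 bp without 1 library. Loci called numbered 0 to 3 without 1 library (3 without Ler replicate 2, 2 without top1a-2 replicate 1, 3 without top1a-2 replicate 2), where a lone library is assumed to vary like the other genotype, and windows 0. The cause was not tested.

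The labels give same-numbered libraries only a number in common. Fitted with a replicate block, 0 windows and 0 loci passed. At an unadjusted p under 0.05 stood 182 of 913 windows (all higher in top1a-2) and 275 of 5221 loci, against 0 and 157 without the block. With each library also centred on its own mean, 52 of 913 windows did so, 22 higher and 30 lower in top1a-2. All windows of a library carry its overall share, so the 182 windows are not separate results. The deviations of same-numbered libraries correlated with r = 0.262 across windows and 0.184 across loci. Within the numbers, the share of unequal calls was 2.44 and 3.55 points higher in top1a-2. For the longer distance on the heavier side top1a-2 minus Ler was 1.35 and 2.48 points, and for wide gaps 0.405 and 1.40. The sign was mixed in the forward share (-0.170 and 1.83 points), in size (1.21 and -0.2325 bp) and in fuzziness (-0.117 and 0.0443 bp). Unknown read depth limits all values.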
